A study of Homo sapiens with 8 samples.

Results

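Mitochondrial ribosomal protein genes are the nuclear genes, named MRPL for the large and MRPS for the small subunit, whose products build the ribosome inside mitochondria. They were taken here as the protein-coding genes with such a symbol and at least 100 counts summed over the 4 input libraries of a selective ribosome profiling experiment. This rule kept 76 of the 78 matching symbols among 60664 gene identifiers. MRPL12, with 149 summed counts, lay just inside the limit, and MRPS17 with 74 and MRPL53 with 0 lay outside it. Of these, 48 have an MRPL and 28 an MRPS symbol. Because MRPS18A and MRPS30 sit in the large subunit despite their names, they were counted there, among its mitochondria-specific proteins, which gave 50 large-subunit and 25 small-subunit proteins. MRPS18A was placed in that class although it is related to the same bacterial protein as MRPS18B and MRPS18C. MRPS36 has since been assigned to the ketoglutarate dehydrogenase complex and was counted in neither subunit. Each count is a number of ribosome-protected fragments (RPFs), the pieces of mRNA that a translating ribosome shields from nuclease, so the values describe the translation of these genes on cytosolic ribosomes.

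The experiment was done in U-2 OS, a cell line from a human osteosarcoma, and compared RPFs of all ribosomes (input) with RPFs of ribosomes recovered through a tagged chaperone (pulldown). In the TRiC line a HaloTag had been knocked into a loop of CCT4, a subunit of the cytosolic chaperonin TRiC. In the PFD line the tag stood at the C terminus of PFD4, which the labels call PFDN4, a subunit of the co-chaperone prefoldin (PFD). The input and the pulldown of each line, 4 groups in all, had 2 biological replicates. All cells received cycloheximide at 100 µg per ml for 1 min, were crosslinked with 2 mM DSP for 30 min, and were digested with RNase I before ribosomes were pelleted through sucrose. Both tags were introduced by genome editing with the same strategy and the CCT4 line is a single clone, so line, clone and preparation cannot be told apart where the lines are compared.

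The mitochondrial ribosome makes the few proteins encoded in mitochondrial DNA, all of them parts of the respiratory chain and ATP synthase. Its protein components are all made in the cytosol and imported into the matrix, many of them by means of an amino-terminal presequence. Many descend from bacterial ribosomal proteins, and the others are found only in mitochondrial ribosomes. TRiC and PFD bind nascent chains in the cytosol and are best known for folding actin and tubulin.

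The libraries held 9523128 to 32637658 counts, with the smallest totals in PFD input replicate 2 and PFD pulldown replicate 1. Among the osteoblast lineage markers, COL1A1 (45087 to 154571 counts), SPARC (20713 to 95181) and RUNX2 (613 to 1920) were present in all 8 libraries, ALPL (62 to 811) and SPP1 (117 to 509) were low, and SP7, BGLAP and COL1A2 had at most 66 counts, while IBSP was at 0. Among markers of other cell types, CD3E was at 0, PTPRC, ALB, CDH1 and PECAM1 had at most 68 counts, EPCAM had 1 to 277, and SOX2 had 477 to 739 in the TRiC line and 0 to 51 in the PFD line. The part of these differences between the lines in the results below was not tested.

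Coding sequences are shown for 4 members, as 2 couples of near-equal length, because the TRiC pulldown values below varied with base composition. The first 300 bases of each are given, 5′ to 3′, from the GENCODE 44 reference transcripts on hg38, with runs of at least 4 consecutive G or C bases in capitals, and they were chosen after the values had been seen. MRPL57, a mitochondria-specific large-subunit protein, is read from 1 coding exon at chr13:21176917-21177222 on the plus strand (306 bases, 64.4% G or C, 120 of the bases shown in capitals). MRPL36, the homologue of the smallest bacterial large-subunit protein, is read from 1 coding exon at chr5:1798627-1798935 on the minus strand (309 bases, 55.0% G or C, 54 in capitals). The MRPS12 coding sequence, for the homologue of the bacterial protein at the decoding site, spans 2 exons at chr19:38931295-38932697 on the plus strand (414 bases, 65.2% G or C, 104 in capitals). That of MRPL42, a mitochondria-specific large-subunit protein, spans 5 exons at chr12:93469286-93501218 on the plus strand (426 bases, 39.9% G or C, 5 in capitals).
MRPL57: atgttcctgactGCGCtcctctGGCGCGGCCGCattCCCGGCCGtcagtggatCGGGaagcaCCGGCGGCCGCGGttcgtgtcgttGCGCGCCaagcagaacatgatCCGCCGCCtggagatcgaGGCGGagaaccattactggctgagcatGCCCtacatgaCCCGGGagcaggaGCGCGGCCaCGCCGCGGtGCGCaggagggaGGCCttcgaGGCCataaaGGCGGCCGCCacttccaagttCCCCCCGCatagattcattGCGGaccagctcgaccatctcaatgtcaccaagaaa
MRPL36: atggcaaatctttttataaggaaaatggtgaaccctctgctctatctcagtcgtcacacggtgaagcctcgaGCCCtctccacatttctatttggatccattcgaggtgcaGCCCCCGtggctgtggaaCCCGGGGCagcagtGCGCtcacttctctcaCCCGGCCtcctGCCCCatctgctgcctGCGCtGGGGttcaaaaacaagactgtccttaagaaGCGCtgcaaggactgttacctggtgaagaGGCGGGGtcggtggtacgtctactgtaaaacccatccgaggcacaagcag
MRPS12: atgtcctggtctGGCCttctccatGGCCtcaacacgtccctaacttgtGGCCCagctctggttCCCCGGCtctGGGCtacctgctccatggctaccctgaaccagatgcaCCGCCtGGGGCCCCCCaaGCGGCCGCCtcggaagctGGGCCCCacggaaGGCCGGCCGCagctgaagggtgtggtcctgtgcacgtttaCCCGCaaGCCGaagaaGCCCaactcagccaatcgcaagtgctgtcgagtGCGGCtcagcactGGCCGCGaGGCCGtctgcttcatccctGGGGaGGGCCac
MRPL42: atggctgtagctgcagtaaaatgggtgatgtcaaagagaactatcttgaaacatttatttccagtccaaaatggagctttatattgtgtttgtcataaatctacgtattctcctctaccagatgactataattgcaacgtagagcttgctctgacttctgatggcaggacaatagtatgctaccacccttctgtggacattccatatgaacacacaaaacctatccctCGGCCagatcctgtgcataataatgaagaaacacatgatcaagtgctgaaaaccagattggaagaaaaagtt

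In the TRiC pulldown the mitochondrial ribosomal protein genes were low almost throughout. Of the 76 members, 43 were lower than in the TRiC input and 0 were higher, by edgeR's quasi-likelihood test with Benjamini-Hochberg adjusted p under 0.05. Among all 17934 genes tested, 10.6% were called lower and 8.64% higher. The median log2 fold change of the members was -0.33, against -0.00 for all genes tested, and 75 of 76 lay below 0, as did 50.3% of all genes. The changes were small, with called members between -0.91 and -0.26 on the log2 scale, and 5 members were lower by 1.5-fold or more. At an unadjusted p under 0.05 there were 53 members, against 32.5% of all genes. A fold change here compares a gene's share of 2 libraries after TMM scaling, so fewer ribosomes on a gene in the pulldown and more ribosomes on the rest cannot be told apart.

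MRPS26, a mitochondria-specific small-subunit protein, was the member furthest below its input. In CPM, which are counts scaled to a common library size with TMM factors, it had 31.6 and 33.7 in the TRiC inputs against 20.8 and 13.7 after pulldown. The log2 fold change was -0.91 ± 0.16 (SE, n = 2 per group, edgeR adjusted p = 0.000793). Both pulldown libraries were low, and they differed more from each other than the inputs did. MRPL55, specific to the mitochondrial large subunit, had input values of 47.0 and 47.3 CPM and pulldown values of 31.0 and 26.7 (log2 fold change -0.71 ± 0.11, edgeR adjusted p = 0.000371). MRPL41, also specific to the mitochondrial large subunit, had 79.9 and 80.1 CPM before and 54.8 and 50.6 after pulldown (-0.60 ± 0.09, edgeR adjusted p = 0.00032). In each of these genes the groups were well separated.

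MRPL58, a peptidyl-tRNA hydrolase that is built into the large subunit, had 43.1 and 43.0 CPM before and 29.7 and 29.9 after pulldown. Its log2 fold change was -0.53 ± 0.11 (edgeR adjusted p = 0.00233), and the replicates of each group were nearly equal. MRPS12 went from 52.5 and 50.8 CPM to 36.3 and 33.4 (-0.57 ± 0.10, edgeR adjusted p = 0.00114), with both pulldowns below both inputs. MRPL57 gave -0.71 ± 0.14, the bacterial-type small-subunit proteins MRPS24 and MRPS21 -0.67 ± 0.13 and -0.53 ± 0.12, the large-subunit proteins MRPL49 and MRPL4 -0.56 ± 0.11 and -0.55 ± 0.13. All 5 of these fell by the same test (edgeR adjusted p between 0.00205 and 0.00569), MRPS21 no longer so without TRiC input replicate 1 (-0.42, edgeR adjusted p = 0.140). MRPL4 is the homologue of a bacterial protein that lines the exit tunnel. In MRPS24, 92.2% of the coding bases also lie under same-strand exons of the readthrough gene URGCP-MRPS24, which had 0 counts in all 8 libraries.

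At the other end, MRPS22 had input values of 49.0 and 53.7 CPM and pulldown values of 48.0 and 51.3. Its log2 fold change was -0.05 ± 0.10 (edgeR adjusted p = 0.776), and the groups overlapped. MRPS5 (-0.07 ± 0.08), MRPS9 (-0.10 ± 0.10), MRPL1 (-0.10 ± 0.14) and MRPS25 (-0.11 ± 0.15) followed and were not called. MRPS5, MRPS9 and MRPL1 have bacterial homologues, while MRPS22 and MRPS25 do not. The sign of 4 of these 5 turned under some alternative settings, though not for MRPS9. MRPL23 was the only member above 0 (0.06 ± 0.31), with a mean of 96 counts per library.

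**Figure D1:**
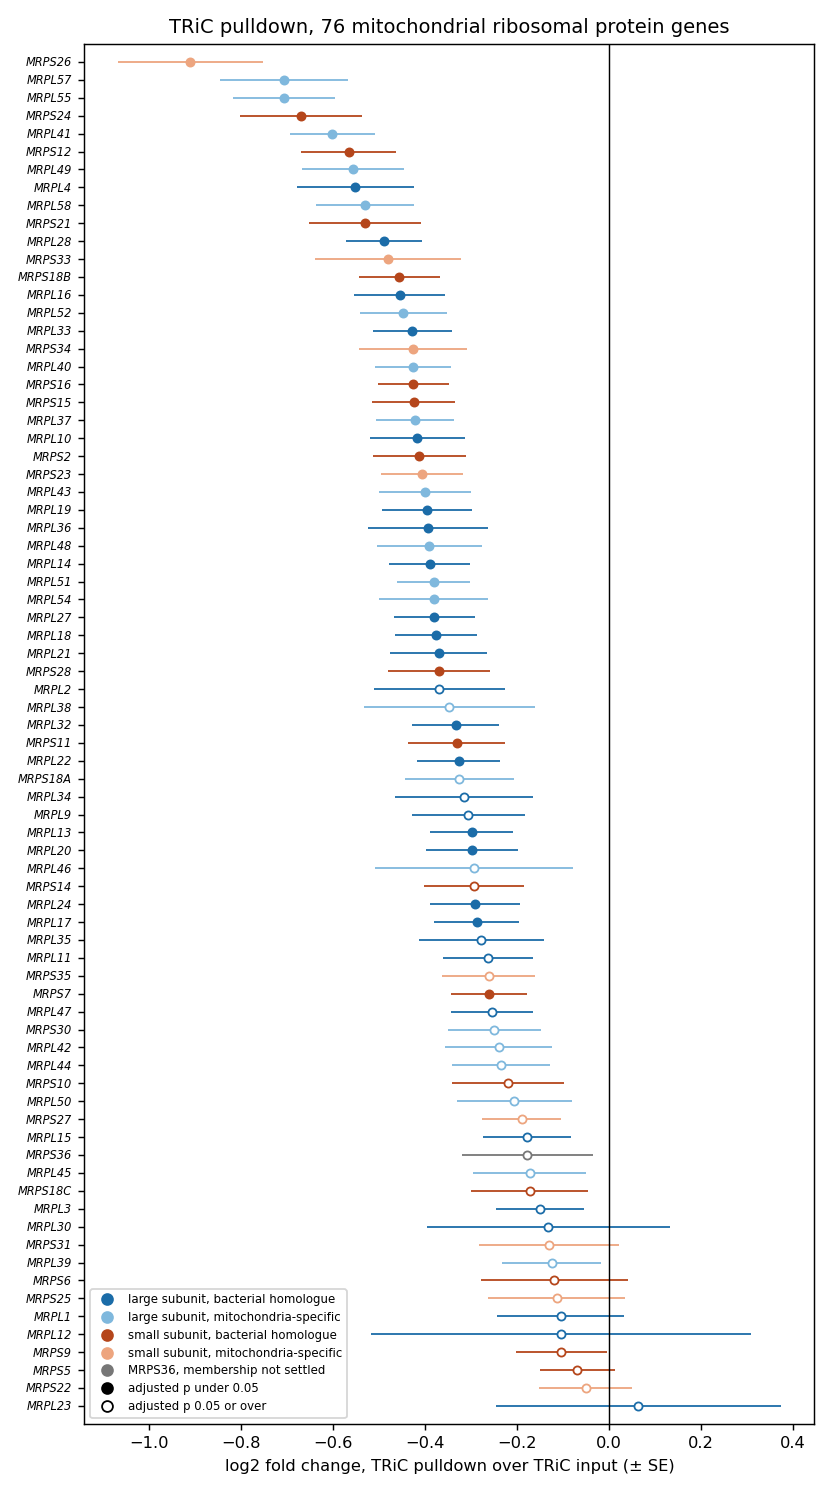
Log2 fold change of TRiC pulldown over TRiC input for each of the 76 genes (points, with SE bars; n = 2 libraries per group), ordered by value and coloured by subunit and origin; filled points have an edgeR adjusted p under 0.05. The 43 filled points lie between -0.91 and -0.26, and MRPL23 at 0.06 is the only point right of 0.

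**Figure D2:**
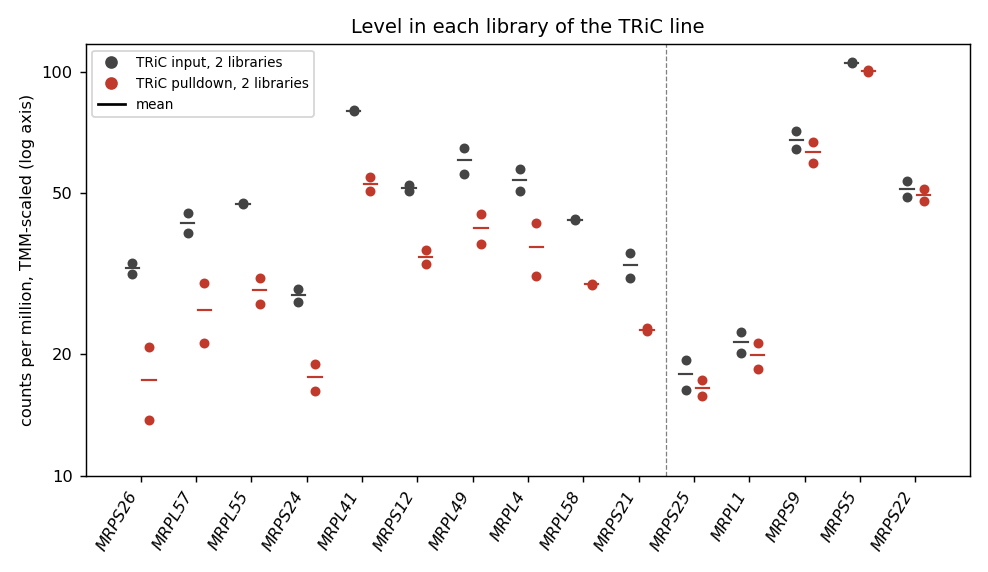
TMM-scaled CPM (log axis) in the 2 input and 2 pulldown libraries of the TRiC line for the 10 called genes furthest below 0 (left of the dashed line) and the 5 genes nearest 0 with a mean count of at least 100 (right). Dots are libraries and bars are group means; the groups are separate in the 10 genes on the left, as for MRPL41 (79.9 and 80.1 against 54.8 and 50.6), and overlap in 4 of the 5 on the right.

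By role, the lower genes were spread over both subunits and both origins. Of the large-subunit proteins 29 of 50 were called lower (median log2 fold change -0.34), and of the small-subunit proteins 14 of 25 (median -0.33). Among large-subunit proteins, those with a bacterial homologue gave 17 of 29 (median -0.31) and the mitochondria-specific ones, with MRPS18A counted there, 12 of 21 (median -0.38). Among small-subunit proteins the counts were 10 of 16 (median -0.35) and 4 of 9 (median -0.26). None of these classes was tested against another.

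The stalk of the large subunit, which recruits translation factors, is built from MRPL10 and copies of MRPL12. MRPL10 went from 46.8 and 46.6 CPM to 33.5 and 36.5 (-0.42 ± 0.10, edgeR adjusted p = 0.00929). MRPL12, with a mean of 60.5 counts per library and 96.0% of its coding bases under same-strand exons of another protein-coding gene, gave -0.10 ± 0.41, so that a change of the size seen in MRPL10 was not detectable at this depth. The 3 MRPS18 paralogs, related to a single bacterial protein, take different places: MRPS18A sits in the large subunit, and MRPS18B and MRPS18C in the small. MRPS18B fell (from 167 and 165 to 131 and 111 CPM, -0.46 ± 0.09, edgeR adjusted p = 0.00179). MRPS18A (-0.33 ± 0.12) and MRPS18C (-0.17 ± 0.13) were not called by the same fit (edgeR adjusted p = 0.0649 and 0.379). The differences between the paralogs were not tested. MRPS36 gave -0.18 ± 0.14 (edgeR adjusted p = 0.424).

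Both pulldown libraries lay below both inputs in 64 of the 76 genes, against 31.2% of all genes tested, and 0 had both above (29.3%). Between same-numbered libraries the log2 ratio was below 0 for 72 genes in replicate 1 (median -0.29) and for 75 in replicate 2 (median -0.38). These pair counts were taken for the members only, without a share over all genes. Summed over the family, the members made up 0.431% (exact Clopper-Pearson 95% interval 0.429 to 0.434) and 0.456% (0.453 to 0.458) of all counts in the TRiC inputs. In the TRiC pulldowns the shares were 0.368% (0.366 to 0.370) and 0.350% (0.347 to 0.352). The pulldown shares were lower than both input shares by more than the replicates of a group differed, and the intervals cover counting error only. The same held in the PFD line, with 0.532% and 0.551% in the inputs and 0.470% and 0.488% after pulldown.

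The number of calls depended on the spread that was assumed. With all 8 libraries in the same fit, where the common dispersion was 0.223 against 0.0153 for the TRiC libraries alone, 0 members were called (26 at an unadjusted p under 0.05; lowest edgeR adjusted p = 0.195), with the median at -0.33. That fit called 0.164% of all genes. Against a threshold of 1.5-fold (edgeR's glmTreat) 0 were called, with 2 at an unadjusted p under 0.05, where 1.27% of all genes were called. Without TRiC input replicate 1 or 2 the counts were 23 (30.3%, all genes 8.52%) and 19 (25%, all genes 8.96%).

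**Figure D3:**
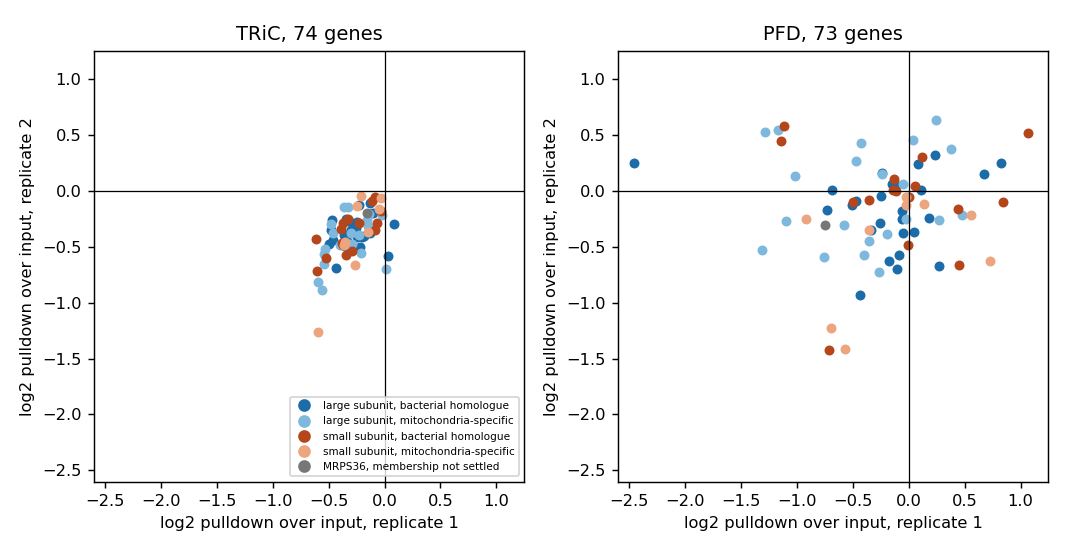
Log2 ratio of pulldown over same-numbered input, replicate 1 on the horizontal and replicate 2 on the vertical axis, for members with a mean of at least 100 counts per library (74 genes in the TRiC line, 73 in the PFD line), coloured by subunit and origin. Counted over all 76 members, drawn or not, both replicates are below 0 in 71 with TRiC and in 34 with PFD, where 31 have opposite signs. No share over all genes was taken for these counts.

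Among the members, the TRiC values varied with the base composition of the coding sequence. Coding G and C content ran from 38.4% to 68.1% (median 52.4%), and its Spearman correlation with the log2 fold change was -0.56 (Pearson -0.57) across the 76 genes, which share the same 4 libraries and are not independent. Over all 14611 protein-coding genes tested the same Spearman value was -0.20. Of the 27 members under 50% G and C 7 were called lower, of the 33 from 50% to 60% 24, and of the 16 at 60% or more 12. Of protein-coding genes no longer than the longest member (1317 coding bases) 10.3%, 25.8% and 24.8% were called lower in the same 3 classes. The sequences printed above were chosen with these values known, so their place along this trend is no test of it. MRPL57 gave -0.71 and MRPL36 -0.39 ± 0.13 at nearly the same length, and MRPS12 gave -0.57 and MRPL42 -0.24 ± 0.12 (not called, edgeR adjusted p = 0.164). MRPL34, at 68.1% G and C, went against it with -0.31 ± 0.15 (edgeR adjusted p = 0.157).

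Length moved with the fold change as well, at a Spearman value of 0.32 among members and 0.35 among all protein-coding genes tested. Of the 26 members shorter than 500 coding bases 17 were called lower (65.4%), and of the 34 from 500 to 900 24 (70.6%). Of the 16 of 900 or more 2 were called (12.5%), namely MRPL4 and MRPL37, a mitochondria-specific large-subunit protein (-0.42 ± 0.08). Of protein-coding genes no longer than the longest member 32.3%, 21.5% and 13.3% were called lower in the same length classes. At 900 bases or more the members' share was thus near the background share, with a median log2 fold change of -0.18 against -0.10. Class limits for composition and length were set after the values had been seen. The correlation with G and C content ran from -0.65 to -0.43 over the alternative settings, and was -0.51 in replicate 1 and -0.50 in replicate 2 of the same-numbered libraries. Replicates of the same group also differed along G and C content, at -0.36 for input replicate 2 over 1 and at -0.36 for pulldown replicate 2 over 1. The part of library composition in the TRiC fold changes was not tested. In the PFD pulldown the Spearman value was 0.14.

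**Figure D4:**
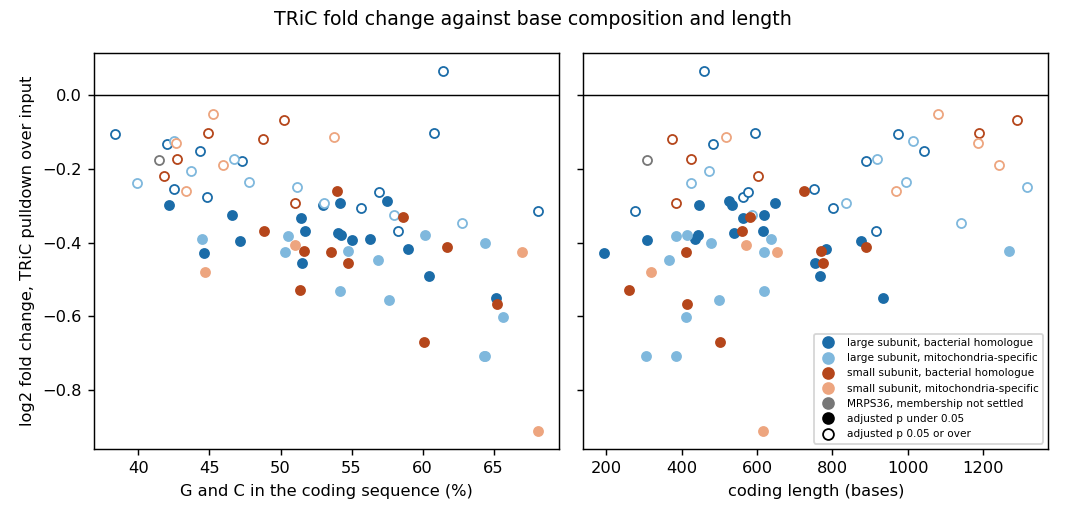
Log2 fold change of TRiC pulldown over input against G and C content of the coding sequence (left, %) and coding length (right, bases) for the 76 genes, coloured by subunit and origin; filled points have an edgeR adjusted p under 0.05. Points fall from left to right in the left panel (Spearman -0.56), and only 2 filled points lie at 900 bases or more in the right panel.

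Genes that work with the mitochondrial ribosome were set beside the family. Of all genes tested with TRiC, 10.6% were called lower and 8.64% higher. Of the 5 mitoribosomal proteins under other symbols 3 fell in the TRiC pulldown, namely GADD45GIP1 (-0.62 ± 0.10), AURKAIP1 (-0.56 ± 0.09) and CHCHD1 (-0.32 ± 0.09), while DAP3 and PTCD3 gave -0.12 ± 0.09 and 0.11 ± 0.09. Of 24 mitoribosome assembly factors 4 fell (16.7%, not far above the share of all genes) and 0 rose (median -0.10). They were NGRN (-0.63 ± 0.10), the acyl carrier protein NDUFAB1 (-0.45 ± 0.09), and the GTPases ERAL1 (-0.40 ± 0.09) and NOA1 (-0.30 ± 0.09). Of 16 mitochondrial translation factors 4 fell (25%) and 0 rose (median -0.10). Among the 4 were the elongation factor TUFM (-0.36 ± 0.08) and the rescue factor MTRFR (-0.51 ± 0.13). Of 19 tested genes for import and presequence processing 6 fell (31.6%) and 0 rose (median -0.21). TOMM7, a small protein of the outer membrane translocase, was furthest (-0.60 ± 0.11). None of the genes in these lists was called in the PFD pulldown, where 0.191% of all genes were called lower. Beside them, nuclear-encoded oxidative phosphorylation subunits had 42 lower and 1 higher of 78 (median -0.30), and cytosolic ribosomal proteins 36 lower and 2 higher of 84 (median -0.26), with no test between the groups.

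The 13 protein genes of mitochondrial DNA, which the mitochondrial ribosome itself translates, moved much further. All 13 fell in the TRiC pulldown, with a median log2 fold change of -2.95 and a range from -3.64 (MT-CO1) to -0.77 (MT-ND6). In the PFD pulldown 9 of 13 fell (median -2.15), and all 13 lay below 0.

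In the PFD pulldown no member was called. By edgeR's quasi-likelihood test 0 of 76 were lower and 0 higher (lowest adjusted p = 0.523), with 8 at an unadjusted p under 0.05 (6.93% of all genes), where 0.191% of 14111 genes were called lower and 0.0496% higher. DESeq2 called 3 members (3.95%), MRPS34, MRPS22 and MRPS10, all lower, and 4.15% of all genes, so that the members' share was near the background. The median log2 fold change was -0.15, with 53 genes below 0 (50.1% of all genes) and 23 above. Both pulldowns lay below both inputs in 28 genes (20.4% of all genes tested) and above both in 9 (18.3%), and the remaining 39 overlapped.

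Among members with a mean of at least 100 counts, the 3 furthest below 0 were small-subunit proteins. MRPS10, the homologue of a bacterial small-subunit protein, went from 53.2 and 56.4 CPM in the PFD inputs to 32.2 and 20.8 (-1.05 ± 0.31, edgeR adjusted p = 0.637). MRPS22 had 46.5 and 59.7 against 28.6 and 25.2 (-0.98 ± 0.29, edgeR adjusted p = 0.626). MRPS34, a mitochondria-specific small-subunit protein, had 103 and 119 CPM against 68.9 and 44.2 (-0.98 ± 0.25, edgeR adjusted p = 0.523). In all 3 the groups did not overlap. Of the MRPS34 coding bases 47.4% lie under exons of EME2 on the opposite strand, and for MRPS22 18.7% under COPB2, and whether counting used strand is not given in the sources used here. MRPL42 (-0.92 ± 0.34) and MRPL9 (-0.66 ± 0.28) came next.

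Of the members above 0, MRPS14 went from 23.6 and 32.8 CPM to 50.02 and 47.2 (0.79 ± 0.30, edgeR adjusted p = 0.706). Both pulldowns were above both inputs. MRPL12 and MRPL23 had larger values but lay under the limit of a mean of 100 counts, with 25 and 0 counts in the inputs against 0 and 134 in the pulldowns for MRPL12, and 86 and 39 against 177 and 44 for MRPL23. Among members over that limit, MRPL34 (0.52 ± 0.36), MRPL50 (0.43 ± 0.28), MRPL28 (0.42 ± 0.20) and MRPL41 (0.38 ± 0.22) followed. MRPL50 and MRPL41 are mitochondria-specific, and MRPS14, MRPL34 and MRPL28 have bacterial homologues. The median SE of the members was 0.25 in the PFD and 0.11 in the TRiC comparison, so changes of the size seen with TRiC were mostly not detectable with PFD. Between replicates of the same group, 22 of 76 members differed by more than 1.5-fold in the PFD pulldown and 7 in the PFD input, against 1 and 0 in the TRiC pulldown and input. With a PFD pulldown library left out, the spread comes from the inputs alone and 1 pulldown library stands for the group. The calls were then 5 members (6.58%, all genes 2.34%) without replicate 1 and 12 (15.8%, all genes 15.8%) without replicate 2, the latter at the background share. The log2 fold changes without replicate 1 and without replicate 2 were -1.33 and -0.69 for MRPS34 and -1.07 and -0.89 for MRPS22.

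Of the 43 genes lower with TRiC, 30 lay below and 13 above 0 with PFD. Of all 76 members 53 lay below 0 with PFD, against 50.1% of all genes, so the genes called with TRiC were much like the family in this. MRPS26, furthest down with TRiC, had 51.1 and 43.1 CPM before and 50.3 and 39.4 after PFD pulldown (-0.07 ± 0.27), and MRPL41 was above 0 as given. The difference between the pulldowns was tested as an interaction over all 8 libraries. It called 0 of 76 members by edgeR's quasi-likelihood test (lowest adjusted p = 0.143, for MRPL41), with 17 at an unadjusted p under 0.05 (14.8% of all genes), where 0.0159% of 18855 genes were called lower and 0.0212% higher with TRiC than with PFD. DESeq2 called 4 members (5.26%) and 6.38% of all genes. The count was 7 (9.21%, all genes 5.62%) without PFD pulldown replicate 1 and 14 (18.4%, all genes 18.4%) without replicate 2, so the latter was at the background share. The difference was -0.97 ± 0.19 for MRPL41 and 0.94 ± 0.24 for MRPS22, with TRiC minus PFD as the sign.

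In the inputs, which sample all ribosomes, the levels of the members spanned a ratio of 264. Per kilobase of coding sequence the highest level was that of MRPL33, the homologue of a small bacterial large-subunit protein, with 541 and 589 CPM per kilobase in the TRiC and 618 and 737 in the PFD inputs. MRPL14, MRPS16, MRPL51 and MRPL13 followed with means over both lines of 463, 410, 374 and 233 CPM per kilobase. The median over members was 88.4. At the low end stood MRPL46 (13.0), MRPL38 (12.6), MRPL30 (10.3), MRPL23 (7.97) and MRPL12 (2.35).

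Low levels went together with shared exons. In 8 members at least 25% of the coding bases lie under same-strand exons of another gene, against 4.88% of protein-coding genes with at least 100 input counts. They were MRPL2, MRPL12, MRPL30, MRPL38, MRPL46, MRPS6, MRPS24 and MRPS28. Their median level was 22.7 CPM per kilobase and that of the other members 96.2. Of the 10 lowest members 6 were among them, and of the 30 highest 0. MRPS17 and MRPL53, the symbols below the count limit, are covered at 100% of their coding bases. STAR's gene counting leaves out reads that fall on exons of more than 1 gene, and its part in these levels was not tested. Without the 8 members, the TRiC count was 41 of 68.

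**Figure D5:**
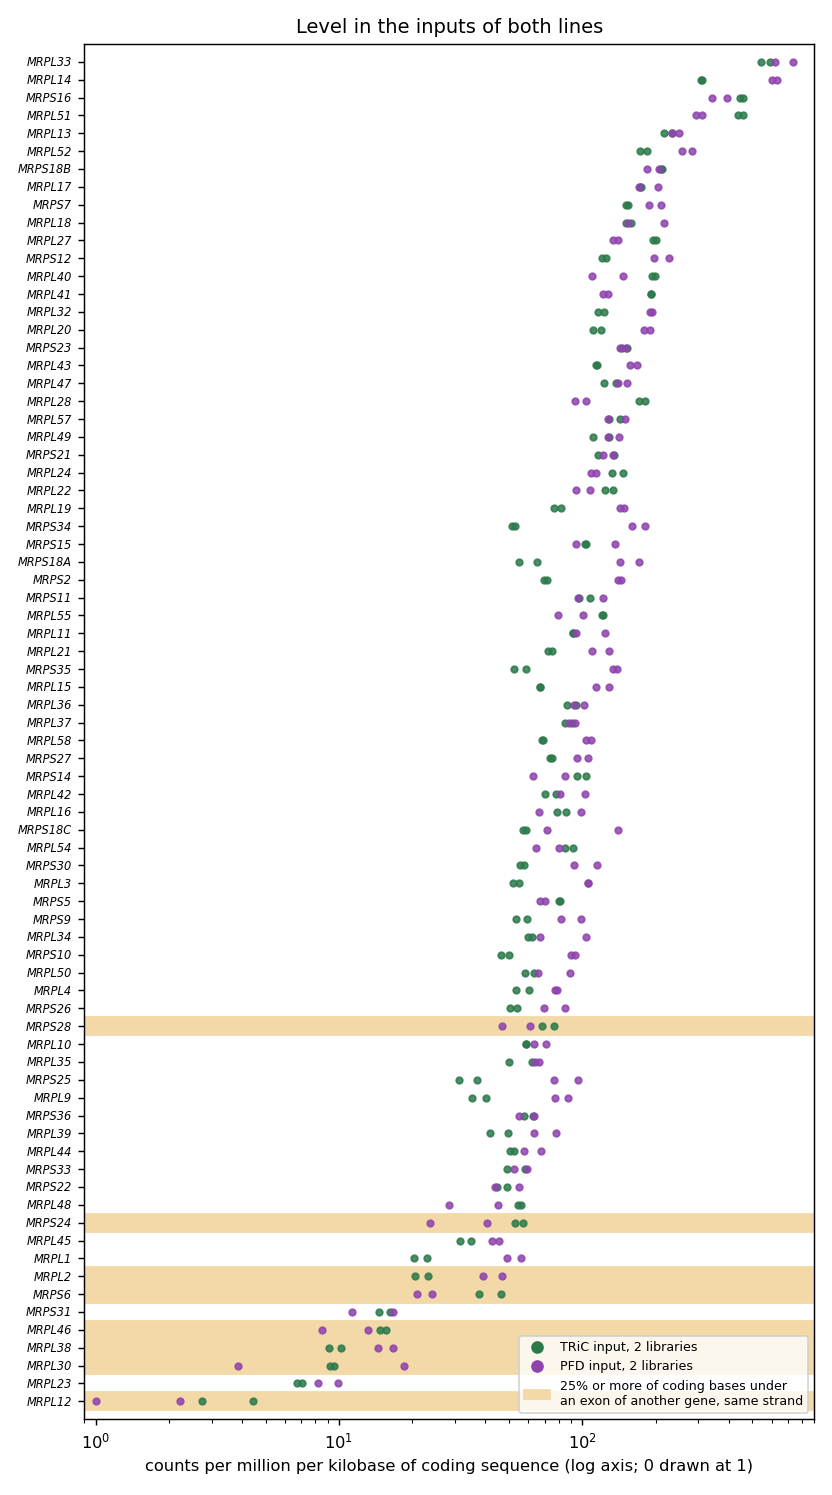
TMM-scaled CPM per kilobase of coding sequence (log axis) of the 76 genes in the 2 TRiC (green) and 2 PFD (purple) input libraries, ordered by the mean; shading marks the 8 genes with at least 25% of coding bases under same-strand exons of another gene. MRPL33 stands at the top (541 to 737) and 6 of the 10 lowest genes are shaded.

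Between the inputs of the lines the family leaned towards the PFD line. By edgeR's quasi-likelihood test 27 of 76 members were higher in the PFD input and 7 lower, where 17.7% of 16341 genes were called higher and 22.6% lower. Both PFD inputs lay above both TRiC inputs in 41 members (32% of all genes) and below in 19 (41.8%), and 42 members had an unadjusted p under 0.05 (49.3%). The median log2 difference was 0.24 for the members and -0.11 for all genes tested. MRPS34 had 34.8 and 33.6 CPM in the TRiC and 105 and 119 in the PFD inputs (1.71 ± 0.11, edgeR adjusted p = 0.000357), and its lines were far apart. MRPS18A, the large-subunit paralog, had 32.3 and 38.4 against 84.2 and 101 (1.38 ± 0.15, edgeR adjusted p = 0.00163). MRPS25 (1.34 ± 0.18), MRPS35 (1.30 ± 0.10) and MRPL1 (1.28 ± 0.15) were also higher in the PFD line by this test. Of the exon bases of MRPS34, MRPS18A and MRPS25, 31.2%, 50.9% and 39.1% lie under exons of opposite-strand genes, and 0% of those of MRPS35 and MRPL1. Whether counting used strand is not given, and the part of this overlap in the differences was not tested.

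In the other direction, MRPL28 had 139 and 132 CPM in the TRiC and 71.4 and 79.8 in the PFD inputs (-0.84 ± 0.10, edgeR adjusted p = 0.00203). MRPS6 (-0.90 ± 0.25), MRPL41 (-0.62 ± 0.10) and MRPL40 (-0.60 ± 0.15) were lower as well, and MRPS24 (-0.80 ± 0.28) did not pass. The MRPS6 call was lost without TRiC input replicate 1 or 2 (edgeR adjusted p = 0.168 and 0.450). MRPS24 had 11.9 and 20.3 CPM in the PFD inputs, and its log2 difference was -0.45 without PFD input replicate 1 and -1.25 without replicate 2. The family made up 0.532% and 0.551% of counts in the PFD inputs, and 0.470% and 0.488% after PFD pulldown, all above the TRiC libraries. Beside it, cytosolic ribosomal proteins had 63 higher and 3 lower of 83 tested (median 0.82) and nuclear-encoded oxidative phosphorylation subunits 4 higher and 40 lower of 76 (median -0.45), and these groups were not tested against each other. Without PFD input replicate 1 or 2 the members called numbered 53 (69.7%) and 52 (68.4%), where 58.5% and 58.7% of all genes were called. Against a 1.5-fold threshold there were 14 (18.4%), where 19.8% of all genes were called.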

How the data were processed

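RPFs were sequenced from U-2 OS cells as input and pulldown of a TRiC and a PFD line, 2 biological replicates per group, and 8 libraries were mapped to groups by their labels. The deposited values are raw counts per gene: the authors trimmed reads, removed PCR duplicates by UMI-tools, discarded non-coding RNA with Bowtie2 2.4.2 and counted unique alignments to hg38 with STAR 2.7.10a. The annotation release and the strand column are not given in the sources used here, so names, coding lengths and overlaps come from GENCODE 44, which holds 60463 of the 60664 identifiers (201 did not match). A further 86 MRP-named entries are not protein-coding and were left out.

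Pulldown and input were compared separately for the lines by edgeR (4.0.16, under R 4.3.3; TMM, filterByExpr, glmQLFit and glmQLFTest, Benjamini-Hochberg over all genes tested, adjusted p under 0.05). The difference between pulldowns was an interaction over 8 libraries, and the inputs were compared in a fit of their 4 libraries. Per-library values are TMM-scaled CPM, ratios of same-numbered libraries use CPM plus 0.5, and SE is that of the log2 fold change. The fits were run on counts simulated from the observed mean levels and the fitted spread. Such a run cannot show whether that spread holds for these libraries. With 2 replicates per group the p-values measure the spread between these cultures only, and the common dispersion was 0.0153 in the TRiC fit and 0.331 in the PFD fit, so the PFD comparison is much less precise. The members, the lists and the rule for named genes (10 furthest called members per direction with a mean of at least 100 counts, 5 where fewer were called, extremes of level and of the inputs, the MRPS18 and stalk proteins, MRPS36, and the furthest genes of each list) were chosen with earlier results of these data known. MRPL36, MRPL37, MRPL2 and MRPS28, as well as DAP3 and PTCD3 and the genes that overlap a member, were named after their values were seen. Of the import list, TOMM6 was too low to be tested.

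Alternatives were DESeq2 1.42.0, a replicate block, scaling by library totals, cyclic loess with limma-trend (limma 3.58.1), no filter, glmTreat against 1.5-fold, a minimum of 100 counts in every library, all 8 libraries in the same fit, leaving out genes that overlap an opposite-strand gene, and leaving out each library, where the lone library of its group was assumed to vary like the others in the fit. Leaving out members with same-strand overlap was added after the data were seen.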

Additional observations from a re-analysis of the deposited data

How the results depend on the processing

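The medians of the members stayed below 0 under every alternative run, from -0.39 to -0.28 in the TRiC and from -0.22 to -0.09 in the PFD pulldown. Other than with a library left out, they moved by more than 1 SD of the 4 possible pulldown and input couples (0.0397 and 0.0558) for TRiC with library totals (-0.29) and with at least 100 counts in every library (-0.28). Leaving out a library gave -0.39 to -0.30 for TRiC and -0.22 to -0.12 for PFD, and moved them past that SD without TRiC pulldown replicate 1 (-0.39) and without PFD pulldown replicate 2 (-0.22). That SD was first taken from same-numbered libraries and was changed after the result had been seen. The TRiC count of 43 became 0 with glmTreat and 0 with all 8 libraries in the same fit, 19 to 45 with a library left out, and 30 to 51 under the others. The PFD count of 0 became 3 with DESeq2, 1 without a filter and 0 to 12 with a library left out. For the difference between the pulldowns, 0 became 4 with DESeq2 (5.26%, all genes 6.38%) and 2 without a filter (2.63%, all genes 1.36%). The 34 members called between the inputs became 14 with glmTreat and 25 to 53 with a library left out. There the median of all genes moved from -0.11 to 0.03 with cyclic loess, and the members called were 28 higher and 9 lower (48.7%, all genes 36.8%). Called members split into 30 higher and 14 lower by DESeq2 (57.9%, all genes 51.5%), against 27 and 7 (44.7%, all genes 40.3%). Deviations of same-numbered libraries correlated at 0.0587 (TRiC) and -0.00887 (PFD) over the genes tested. These values show little shared deviation, and cannot show whether same-numbered libraries came from the same preparation. With a replicate block the TRiC count was 51 (67.1%, all genes 26.1%), the PFD count 1 (MRPS34; 1.32%, all genes 0.95%) and the difference count 0. The TRiC settings that gave 30 to 51 calls, with no library left out, called 39.5% to 67.1% of members and 9.68% to 27.9% of all genes. The highest share of all genes, 27.9%, came with at least 100 counts in every library, where 48.6% of members were called. Against genes of such coverage the excess of the members was thus smaller. Signs turned for MRPS22 with TRiC (0.0072 with cyclic loess, 0.014 with at least 100 counts in every library, 0.0058 without TRiC input replicate 2), for MRPS5 (0.015 with cyclic loess), for MRPL1 (-0.23 to 0.0067 with a library left out) and for MRPS25 (-0.23 to 0.0038). The 10 members furthest below 0 with TRiC lost their call with glmTreat and with all 8 libraries in the same fit, and MRPS21 also without TRiC input replicate 1 (edgeR adjusted p = 0.14). Causes were not tested.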
